A study of Homo sapiens with 6 samples.

Results

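Alternative 5′ splice site (A5SS) events join an exon to the next one through either of a pair of donor sites, so that the exon exists in a long and a short form. The events described here are those whose long exon exceeds the short exon by at most 50 bases, a choice made from exon coordinates alone. They numbered 535 of 1359 A5SS events, in 429 genes. RNA had been sequenced from LNCaP, a line of human prostate cancer cells that depends on androgen, after stable introduction of Flag-KDM4B (3 libraries, replicates 1, 2 and 4) or the plenti6 control plasmid, here called vector (3 libraries, replicates 1, 2 and 3). The names of the 3 KDM4B libraries share a tag that no vector library carries. The labels do not say what the tag stands for, and it cannot be told apart from the group. KDM4B is a histone lysine demethylase. All cells had been kept for 3 days in medium with 10% of a serum abbreviated as CFBS before harvest, and the labels do not say that replicates were separate cultures or give the number of clones, so the p-values cover no more than the differences among these samples, which may be technical.

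A 5′ splice site is first recognised by the U1 small nuclear ribonucleoprotein, whose RNA pairs with the exon-intron border, and is handed over to the U6 and U5 particles before the intron is cut. Where several candidate donors lie close together, SR proteins and hnRNP proteins shift the choice between them. A shift by a multiple of 3 bases adds or removes amino acids, whereas any other shift inside the coding sequence changes the reading frame and can send the transcript to nonsense-mediated decay. Near the start of a gene the same shift may only alter the untranslated leader.

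What the deposited counts can and cannot show limits every statement below. The table gives 1 read count per event and library, not a count for each form. In 87 sets of 3 donors that share an exon start and a downstream exon, both events of the longest donor had the same count in only 7 of 595 library values, and both events of the shortest donor in 4 of 595. The count is therefore not that of the reads across a single donor junction. A count of the long form that also takes reads inside the extension would differ between such events too, so this check cannot exclude it. Which reads the count holds is not settled. A count was therefore set against the summed skipped exon (SE) counts of the same gene, and is given as event reads per 1000 SE reads. This ratio is the event's coverage relative to the gene's SE reads. Events with the same donors and another downstream exon have counts of their own, so it is not the coverage of the donor exon as a whole. It does not tell which donor was used, and since SE events share reads it is not an isoform fraction.

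KDM4B itself stood at 26.33, 27.17 and 25.76 FPKM (fragments per kilobase, scaled to library size) in the KDM4B-labelled libraries and 24.73, 25.15 and 25.28 FPKM in the vector libraries, which was not called as deposited (log2 fold change 0.07, SE 0.039, limma, adjusted p = 0.113) and was called after median-of-ratios scaling (0.31, adjusted p = 1.93e-05). Directions below therefore rest on the label. All 9 LNCaP markers were above 1 FPKM on average, with KLK3 averaging 441 FPKM in the KDM4B-labelled libraries and 2212 FPKM in the vector libraries. Of 5 markers of other cell types in the table COL1A1 alone passed 1 FPKM (2.92 in the KDM4B-labelled and 2.36 in the vector libraries, on average), the endothelial gene VWF was at 0.37 to 0.43 FPKM in the KDM4B-labelled and 0.84 to 0.96 in the vector libraries, and PTPRC, CD3E and PECAM1 were at most 0.08 FPKM in any library. Ribosomal RNA took 8.14% to 10.5% of the FPKM sum in the KDM4B-labelled libraries and 0.144% to 0.473% in the vector libraries. Its part in the results was not tested. The 535 events held 54828 to 56902 reads in the KDM4B-labelled libraries and 63171 to 66162 in the vector libraries.

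The donor pairs themselves were unevenly spaced. Events that differ only in the downstream exon share their donors, and the 535 events reduced to 468 distinct pairs. A difference of 4 bases was the most frequent, with 38 pairs, followed by 12 bases with 37, 9 bases with 31, 15 bases with 24 and 6 bases with 23. Multiples of 3 made up 268 of the 468 pairs (57.3%), against 41.0% of 710 pairs spaced by more than 50 bases. A difference of 48 bases, with 20 pairs, stood out at the upper end. Single-base and 2-base shifts were found once each.

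**Figure D1:**
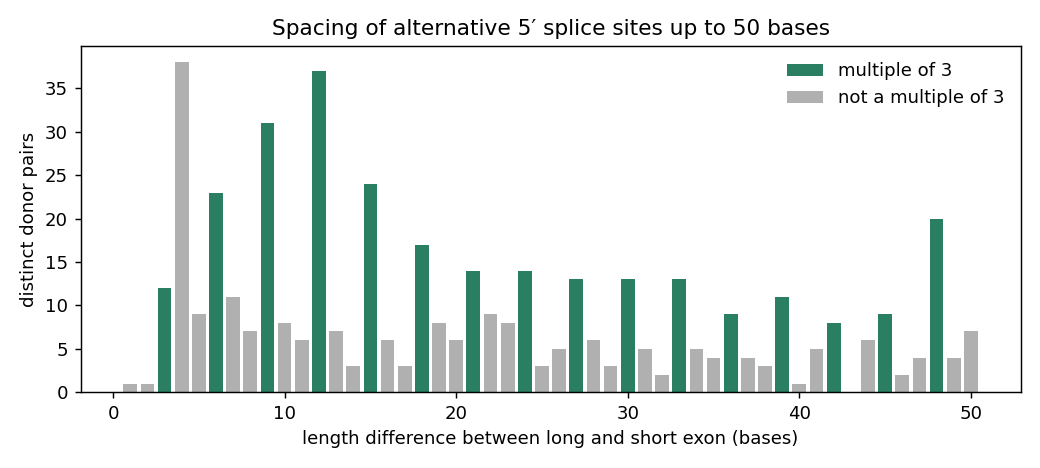
Number of distinct donor pairs (vertical axis) by the length difference between the long and the short exon in bases (horizontal axis), with multiples of 3 in green and other spacings in grey. The 4-base spacing is the highest bar, at 38 pairs, and the green bars at 6, 9, 12 and 15 bases stand above their neighbours.

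Both forms were found in RefSeq transcripts for 412 of 535 events (77.0%), against 60.7% of the 824 events beyond 50 bases. In 53 events only the long form and in 44 only the short form was in RefSeq, and in 26 neither was, judged by the transcript identifiers in the table. The donors lay within the first 10% of the span of their gene's deposited events in 248 cases (46.4%), against 57.2% of the events beyond 50 bases. The median short exon was 130 bases long. Coverage was lower than for wider spacings, with a median of 41.2 reads per library and event, against 92.0 beyond 50 bases. Most genes contributed 1 event (346 genes), and 65 contributed 2, 15 contributed 3 and 2 contributed 4. ANAPC11, which encodes a subunit of the anaphase-promoting complex, contributed 6, the highest number; its 3 pairs, spaced by 8, 22 and 30 bases, each occurred with 2 downstream exons. Picked out for that number, they had log2 ratios between the groups of -0.08 to 0.19, none called.

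The comparison asks whether splicing events differed between Flag-KDM4B and vector cells. Of the 535 events 458, in 374 genes, could be tested. A further 47 lay in genes with no SE event and 30 had too few reads. Relative to their gene, 4 events were higher and 5 lower in the KDM4B-labelled libraries (quasi-likelihood test in edgeR, p below 0.05 after Benjamini-Hochberg adjustment over all A5SS events). These 9 of 458 events stand beside a background of 3.69% called among all 1193 A5SS events tested, 1.84% in each direction. The median log2 ratio of the 458 events was -0.00, and that of all A5SS events 0.00. The groups did not overlap for 27 events that were higher and 33 that were lower, or 13.1% of events, against 18.4% of all A5SS events (9.47% higher and 8.97% lower). At an unadjusted p below 0.05 there were 41 of the 458, beside 12.9% of all A5SS events tested. DESeq2 and limma each called 4, beside 1.51% and 3.44% of all A5SS events by these tools, the events of ARF1, PABPC4, RCC1 and VEGFA, whereas those of RPS14, AFMID, CEP170, SIGIRR and STARD3 passed with edgeR and not with these tools (adjusted p = 0.0510 to 0.338). Positions below are as deposited, with starts counted from 1. Only 9.53% of the long exons lay inside their gene on GRCh38, the build in the submitters' processing notes, so the build of these positions is not settled.

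Lower coverage of the event was called in ARF1, VEGFA, AFMID, CEP170 and RCC1. ARF1 encodes a small GTPase that recruits coats to Golgi vesicles. Its 22-base event (extension at chromosome 1, 228271054 to 228271075) had 20, 27 and 21 reads in the KDM4B-labelled libraries and 101, 78 and 73 in the vector libraries. The 6 libraries separated without overlap, at 6.53 ± 0.912 against 14.98 ± 1.82 event reads per 1000 SE reads (SD, n = 3 each; log2 ratio -1.19, SE 0.180, edgeR, adjusted p = 0.00403). The gene as a whole was also lower, at 288 against 480 FPKM (log2 fold change -0.73, limma, adjusted p = 5.72e-09), and the event fell beyond it. In bulk RNA, less of a transcript per cell and fewer cells with it cannot be told apart. Only 1 SE event stood for the gene, and it shares an exon with this event. The call could therefore not be repeated on SE events that share no exon. Among the calls, that of ARF1 alone held without any single library (edgeR, adjusted p = 0.00362 to 0.0362).

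VEGFA encodes a growth factor for blood vessels, made in isoforms that differ in the segments that bind heparin. Its 18-base event (extension at chromosome 6, 43748523 to 43748540) had 15, 14 and 9 reads in the KDM4B-labelled libraries and 105, 95 and 72 in the vector libraries. Per 1000 SE reads these were 18.2 ± 5.12 and 40.9 ± 4.38 (SD, n = 3 each; log2 ratio -1.17, SE 0.236, edgeR, adjusted p = 0.0166). A second VEGFA event, of 35 bases in the following exon (extension at chromosome 6, 43749790 to 43749824), had 144, 121 and 138 reads in the KDM4B-labelled libraries and 507, 402 and 419 in the vector libraries. It followed the gene, with 192 ± 7.42 and 201 ± 14.1 event reads per 1000 SE reads (log2 ratio -0.06, SE 0.108, edgeR, adjusted p = 0.883). VEGFA as a whole measured 24.5 FPKM in the KDM4B-labelled libraries and 75.5 FPKM in the vector libraries. Leaving out KDM4B replicate 1 or 4, or vector replicate 1 or 2, ended the call on the 18-base event (adjusted p = 0.0594, 0.0838, 0.0512 and 0.0624).

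RCC1 encodes the exchange factor that loads the GTPase Ran on chromatin. Its 42-base event (extension at chromosome 1, 28857086 to 28857127) had 21, 25 and 30 reads in the KDM4B-labelled libraries and 56, 48 and 48 in the vector libraries, while RCC1 expression was 52.0 against 53.0 FPKM. The ratio was 5.72 ± 1.19 against 11.4 ± 0.718 event reads per 1000 SE reads (SD, n = 3 each; log2 ratio -1.002, SE 0.187, edgeR, adjusted p = 0.0111). All 3 KDM4B-labelled libraries lay below all 3 vector libraries. The call was lost without KDM4B replicate 1 (adjusted p = 0.0594).

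AFMID encodes kynurenine formamidase, an enzyme of tryptophan breakdown. Its 15-base event (extension at chromosome 17, 76201820 to 76201834) had 31, 49 and 30 reads in the KDM4B-labelled libraries and 85, 53 and 51 in the vector libraries (log2 ratio -1.06, SE 0.264, edgeR, adjusted p = 0.0449). Vector replicate 1 was far above the other vector libraries, at 45.2 event reads per 1000 SE reads against 25.7 and 23.8, and the call was lost without it (log2 ratio -0.73, adjusted p = 0.166) or without any other library except KDM4B replicate 2. CEP170 encodes a protein of the mature centriole and has a processed pseudogene that can share its reads. Its 7-base event, with neither form in RefSeq, had 12, 15 and 16 reads in the KDM4B-labelled libraries and 27, 31 and 27 in the vector libraries (log2 ratio -1.01, SE 0.253, edgeR, adjusted p = 0.0449), a call lost without any of the 6 libraries (adjusted p = 0.0688 to 0.187). A 30-base event of CEP170 had 16, 19 and 18 reads against 29, 37 and 26 in the vector libraries and missed the threshold (log2 ratio -0.82, edgeR, adjusted p = 0.121).

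Higher coverage of the event was called in PABPC4, RPS14, SIGIRR and STARD3. PABPC4 encodes a cytoplasmic poly(A)-binding protein. Its 48-base event (extension at chromosome 1, 40030095 to 40030142) had 34, 30 and 20 reads in the KDM4B-labelled libraries and 8, 2 and 6 in the vector libraries. These amounted to 5.92 ± 1.45 and 1.40 ± 0.820 event reads per 1000 SE reads (SD, n = 3 each; log2 ratio 2.06, SE 0.376, edgeR, adjusted p = 0.0111), without overlap. Leaving out KDM4B replicate 1 or vector replicate 2 ended the call (adjusted p = 0.0538 and 0.0597). RPS14, a protein of the small ribosomal subunit, had a 6-base event with 166, 158 and 173 reads in the KDM4B-labelled libraries and 149, 99 and 159 in the vector libraries, at 11.2 ± 0.671 and 7.61 ± 1.76 per 1000 SE reads (log2 ratio 0.55, SE 0.132, edgeR, adjusted p = 0.0362). RPS14 has pseudogenes that can share reads, and 1 SE event, which shares an exon with the 6-base event, stood for the gene. Without any library except KDM4B replicate 2 or vector replicate 3 this call was lost (adjusted p = 0.0749 to 0.187).

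SIGIRR and STARD3 rested on few reads, a mean under 10 per library, and are named here because they were called. Both reached the minimum of 10 event reads over all libraries only through the KDM4B-labelled libraries (19 reads against 3 in the vector libraries for SIGIRR, and 22 against 2 for STARD3), so that they could enter the test only as higher there. SIGIRR, an inhibitory member of the interleukin-1 receptor family, had a 31-base event with 9, 5 and 5 reads in the KDM4B-labelled libraries and 1 read in each vector library. Set against the gene's SE reads, the ratio of KDM4B-labelled over vector libraries was 8.43 (95% interval 2.48 to 44.5, exact, counting error only). The edgeR test gave adjusted p = 0.0222. STARD3, a sterol transfer protein of late endosomes, had a 13-base event with 4, 11 and 7 reads in the KDM4B-labelled libraries and 0, 0 and 2 in the vector libraries. On the same base its ratio of KDM4B-labelled over vector libraries was 11.02 (95% interval 2.71 to 96.6), with adjusted p = 0.0499 in edgeR. The SIGIRR call was lost without KDM4B replicate 1 or any vector library (adjusted p = 0.0701 to 0.0993) and the STARD3 call without any of the 6 libraries (adjusted p = 0.0507 to 0.176).

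**Figure D2:**
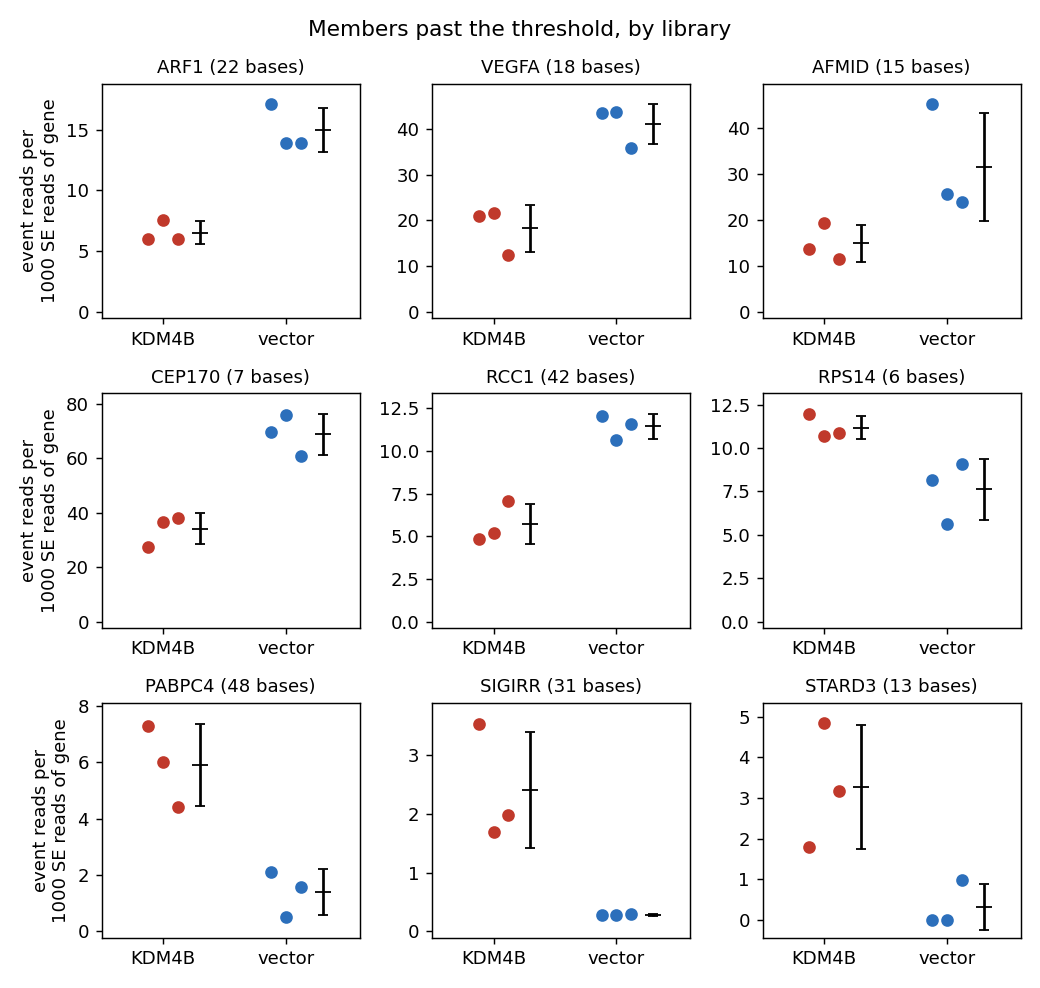
Event reads per 1000 SE reads of the gene (vertical axes, each from its own scale) in the 3 KDM4B-labelled libraries (red) and the 3 vector libraries (blue) for the 9 called events, with the mean and SD in black. In ARF1, VEGFA, AFMID, CEP170 and RCC1 the red points lie below all blue points, and in RPS14, PABPC4, SIGIRR and STARD3 above them.

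The PABPC4, SIGIRR and STARD3 events share a feature that the selection did not use. Their donor pair was deposited with more than 1 downstream exon, and the called event joined it to a farther exon, past the nearest. With the nearest exon the same PABPC4 donors had 337, 370 and 295 reads in the KDM4B-labelled libraries and 308, 291 and 291 in the vector libraries (log2 ratio -0.13, SE 0.084, edgeR, adjusted p = 0.533). SIGIRR with its nearest exon had 86, 61 and 62 reads against 90, 79 and 67 in the vector libraries, and STARD3 35, 22 and 33 against 50, 29 and 43 in the vector libraries, neither called (log2 ratios 0.24 and -0.44, edgeR, adjusted p = 0.618 and 0.523). Of 49 tested events that joined a pair to a farther exon 3 were called, these same 3. Beside them stand 0 calls of 59 nearest-exon events, 6 of 350 events with a single downstream exon, and 3.69% of all A5SS events tested. The difference was not tested. Since SIGIRR and STARD3 passed the filter only through the KDM4B-labelled libraries, the count of 3 is no support for a direction among farther-exon events. The farther-exon events had fewer reads, with a median of 14.5 per library against 60.7 for the nearest-exon events.

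A comparison chosen after these values were seen set each farther-exon event directly against the nearest-exon event of the same pair. Of 50 such events among the narrow spacings 2 were called higher and 0 lower: PABPC4 (log2 ratio 2.19, SE 0.361, edgeR, adjusted p = 0.0272) and SIGIRR (2.70, SE 0.361, adjusted p = 0.0119). At an unadjusted p below 0.05 there were 8 of the 50, and STARD3 was not called (3.67, SE 0.990, adjusted p = 0.228). Over all A5SS events the same comparison called 3, or 1.91% of those tested, with 10.2% at an unadjusted p below 0.05. These shares are not directly comparable with the narrow spacings, because some wide-spaced events held nearly the same reads with either exon. Examples are ARIH2 (2974 bases, log2 ratio 0.007, SE 0.007) and ECHDC2 (8799 bases, 0.002, SE 0.002). The comparison uses the same farther-exon reads that led to it, so the PABPC4 and SIGIRR calls here are no separate support. SIGIRR again passed the filter only through the KDM4B-labelled libraries, so it could enter only as higher there.

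**Figure D3:**
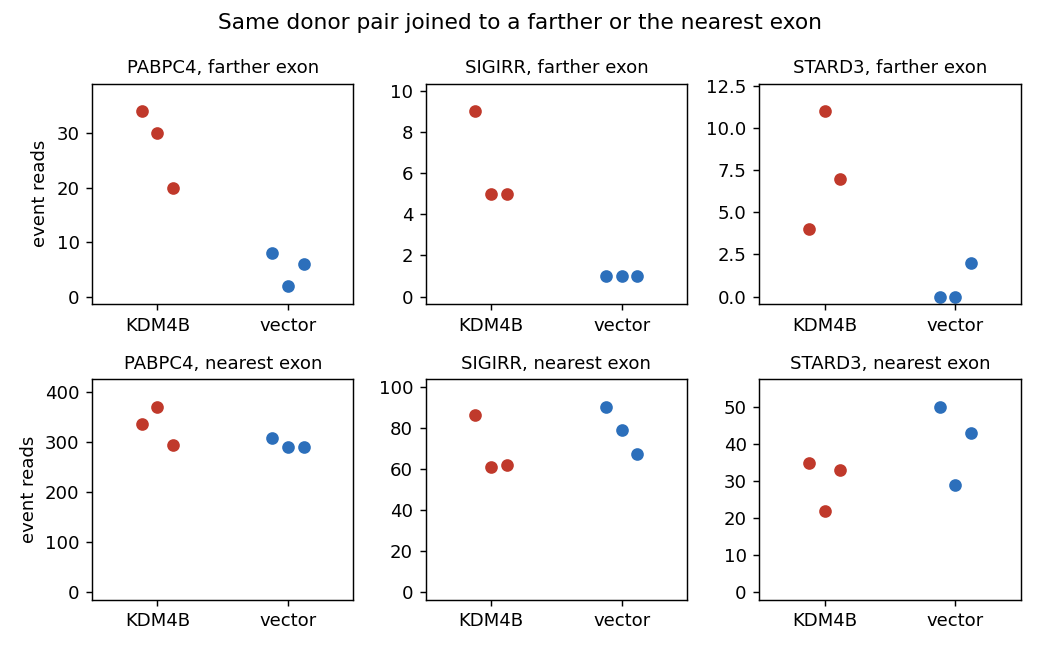
Event reads (vertical axes, each from its own scale) in the KDM4B-labelled libraries (red) and the vector libraries (blue) for the donor pairs of PABPC4, SIGIRR and STARD3, joined to a farther exon (upper row) or to the nearest exon (lower row). In the upper row all red points lie above all blue points, whereas in the lower row the groups overlap.

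The best covered events were close to their gene in both groups. Of 63 tested events with a mean of at least 200 reads per library, 0 were called by edgeR, DESeq2 or limma, and 3 had an unadjusted p below 0.05. Their log2 ratios lay between -0.15 and 0.18 from the 5th to the 95th percentile, and the median SE was 0.090. Of 245 events of the same depth beyond 50 bases, edgeR called 19 (7.76%), DESeq2 9 and limma 26; the difference between the spacings was not tested, and their median depths were 343 and 446 reads. At the low end, 65 events with a mean under 10 reads had a median SE of 0.596, so that a log2 ratio of 1 there lay within 2 SE of 0.

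**Figure D4:**
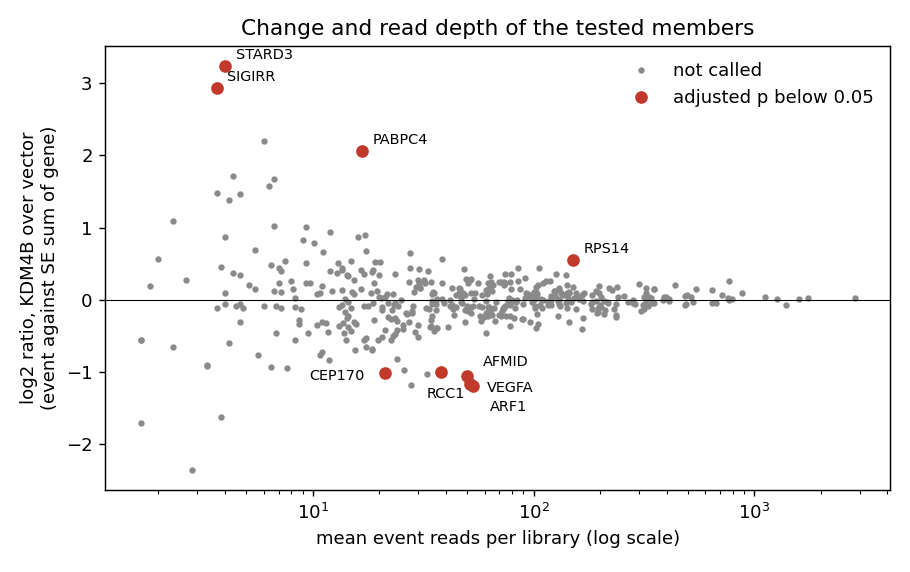
Log2 ratio of the KDM4B-labelled libraries over the vector libraries, event against SE reads of the gene (vertical axis), by mean event reads per library on a log scale (horizontal axis), for the 458 tested events. Grey points were not called and the 9 red points were. The spread narrows to the right, and no red point lies above 200 reads.

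Among the most read events, those of ATP5J2 (18 bases) and NDUFV1 (27 bases), of ATP synthase and respiratory complex I, had log2 ratios of 0.03 and 0.09, the 4-base event of the complex I subunit NDUFS5 0.02, and the 21-base event of CNBP, a nucleic acid binding protein, 0.03, none called (edgeR, adjusted p = 0.532 to 0.944). The most read event of all, a 4-base event of RPS10 with 2762, 2709 and 2929 reads in the KDM4B-labelled libraries and 3540, 3569 and 3635 in the vector libraries, lay in a gene with no SE event. Its reads alone did not pass the test (log2 change -0.11, edgeR with TMM scaling, adjusted p = 0.21).

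In several genes with large differences in expression, the reads of the narrow event and the SE reads differed in the same direction and by similar amounts, with exceptions such as the called 18-base VEGFA event. KLK2, an androgen-induced kallikrein, had a 37-base event with 242, 199 and 175 reads in the KDM4B-labelled libraries and 1374, 1303 and 1320 in the vector libraries, far apart. Per 1000 SE reads these were 55.2 ± 9.29 and 45.8 ± 2.08 and overlapped (log2 ratio 0.27, SE 0.093, edgeR, adjusted p = 0.177). The 18-base event of IGFBP3, a binding protein of insulin-like growth factors, had 61, 148 and 67 reads in the KDM4B-labelled libraries and 10, 12 and 10 in the vector libraries, and the gene's SE reads were 365, 652 and 369 against 64, 71 and 66 (log2 ratio 0.28, SE 0.274, edgeR, adjusted p = 0.738). IGFBP3 was picked out after its values were seen. ESRP1, an epithelial splicing regulator, had a 12-base event with 93, 88 and 112 reads in the KDM4B-labelled libraries and 348, 275 and 264 in the vector libraries (log2 ratio against the gene -0.17, SE 0.107, edgeR, adjusted p = 0.533). RDH11, an androgen-induced retinol dehydrogenase (39 bases), and the heat shock protein HSP90AA1 (1 base) had 832, 810 and 922 reads and 1814, 1851 and 1497 reads in the KDM4B-labelled libraries, and 1569, 1736 and 1756 reads and 1056, 1100 and 1029 reads in the vector libraries, with log2 ratios against the gene of 0.01 and -0.07.

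Over the 224 tested events with a mean of at least 50 reads, the log2 change of event reads and of the gene's SE reads had a Pearson r of 0.92 and a Spearman rho of 0.88. Over all 458 events these were 0.71 and 0.69. Both changes come from the same libraries, some reads count in both, and events of a gene share its SE reads, so this is a description. Without the gene as a base, 62 events were called higher and 42 lower of 504 (20.6%; edgeR with TMM scaling), against 25.3% of all A5SS events.

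**Figure D5:**
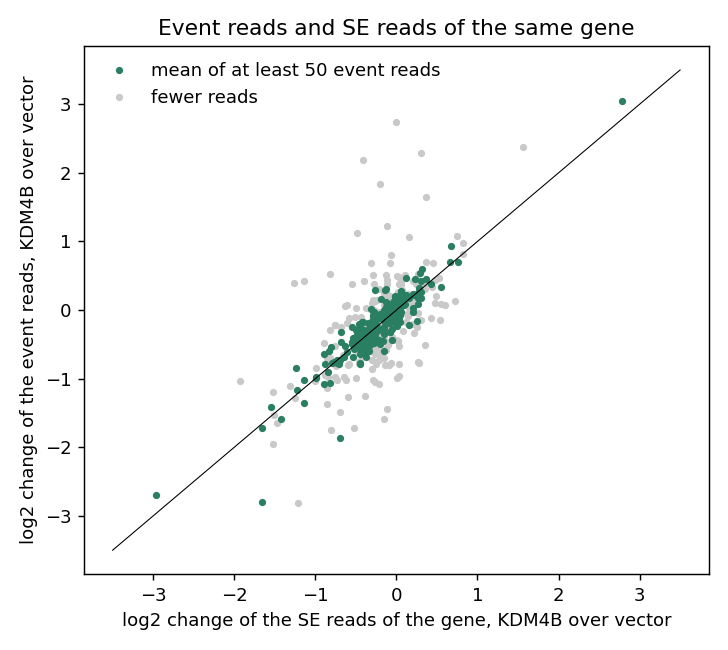
Log2 change of event reads (vertical axis) against log2 change of the gene's SE reads (horizontal axis), both KDM4B-labelled libraries over vector libraries, for the 458 tested events. Green points, with a mean of at least 50 event reads, lie along the line of equal change (r = 0.92), with IGFBP3 at the upper right and KLK2 at the lower left.

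Of 261 tested events with a multiple of 3 bases 2 were called higher and 3 lower (median log2 ratio 0.00), and of 197 others 2 higher and 2 lower (-0.01). Differences of 1 to 10 bases gave 2 calls of 130, of 11 to 25 bases 4 of 164 and of 26 to 50 bases 3 of 164. Over all A5SS events tested edgeR called 3.69%, DESeq2 1.51% and limma 3.44%, and 12.9% had an unadjusted p below 0.05. At exactly 4 bases 0 of 34 were called, and at 12 bases 0 of 36, by edgeR, DESeq2 or limma (2 of each at an unadjusted p below 0.05). Of the 9 calls 8 were among the 343 tested events with both forms in RefSeq, and 1 (CEP170) among the 25 with neither. Of 49 with only the long form and 41 with only the short form in RefSeq 0 were called by edgeR, DESeq2 or limma, with 3 and 2 at an unadjusted p below 0.05. Near the upper limit, the 50-base events of GNL3 and N4BP2L2 had log2 ratios of -0.08 and -0.06 and that of ATP5J 0.44, and the 51-base events of ECI1, MTCH1 and ITPA, just outside it, -0.10, -0.12 and 0.01.

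Grouped by the function of the host gene, judged from its symbol, no group held more than 1 call. Most events lay outside every group, 290 of the 458, with 5 of the 9 calls. The counts by group stand beside 3.69% called and 12.9% at an unadjusted p below 0.05 over all A5SS events tested. Of 18 tested events in splicing and RNA processing genes 1 was called (PABPC4). METTL23, a methyltransferase, was the next lowest in p (log2 ratio -0.46, edgeR, adjusted p = 0.398), with KDM4B replicate 4 at 29 reads beside 53 and 63. Of 20 in chromatin and transcription genes 0 were called by edgeR, DESeq2 or limma, with 3 at an unadjusted p below 0.05. These included the 9-base events of the histone H3 lysine 4 methyltransferases KMT2D and KMT2A. KMT2D had 129, 113 and 110 reads in the KDM4B-labelled libraries and 79, 109 and 95 in the vector libraries (log2 ratio 0.45, SE 0.131, edgeR, adjusted p = 0.0938; with the most-read SE event as base 0.21, adjusted p = 0.613), and KMT2A 47, 48 and 39 against 30, 36 and 32 in the vector libraries (0.57, SE 0.178, adjusted p = 0.126). The ratios of both did not overlap between the groups, which held for 18.4% of all A5SS events tested. Another narrow KMT2D event, with a mean of 64.3 reads, was not called (log2 change of event reads 0.12, of the gene's SE reads -0.13). KMT2A measured 9.74 against 9.58 FPKM.

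Of 25 events in zinc finger genes 0 were called by any of the 3 tools, with 1 at an unadjusted p below 0.05, the 12-base ZNF532 event with a farther exon (6, 6 and 3 reads in the KDM4B-labelled libraries and 4, 2 and 4 in the vector libraries). Kinase, phosphatase and signalling genes gave 0 calls of 26 by any tool and 2 at an unadjusted p below 0.05: CDK11A (30 bases, log2 ratio -0.39, edgeR, adjusted p = 0.261), which has a near-identical neighbour, CDK11B, and CDK10 (38 bases, -0.31, 0.371). Ubiquitin genes gave 0 of 19 by any tool and 1 at an unadjusted p below 0.05, the 50-base event of the deubiquitinase USP31 (14, 10 and 8 reads in the KDM4B-labelled libraries and 22, 33 and 24 in the vector libraries; log2 ratio -0.70, edgeR, adjusted p = 0.299), with USP48 at 0.25. Translation genes gave 1 call of 9 (RPS14), with RPL17 at -0.25, and membrane traffic and cytoskeleton genes 1 of 21 (ARF1), with the 4-base event of the golgin GOLGA1 at -0.94 (adjusted p = 0.367). DNA repair and cell cycle genes gave 1 of 11 (CEP170). Mitochondrial genes gave 0 of 9 and transporters and pumps 0 of 14 by any tool, with 1 each at an unadjusted p below 0.05, the 50-base event of ATP5J, a subunit of ATP synthase that both symbol patterns take; the calcium pump ATP2C1 stood at 0.23. Androgen-regulated genes had 2 events, KLK2 and PMEPA1 (7 bases, 0.88, adjusted p = 0.296), and stress genes 2, HSP90AA1 and ATF7 (33 bases, -0.08), none called by edgeR, DESeq2 or limma. At an unadjusted p below 0.05 there were both androgen-regulated events and 0 of the stress events. For all these groups the shares over all A5SS events tested were 3.69% called and 12.9% at an unadjusted p below 0.05. The groups were not tested against these shares. Of 24 genes followed by name, 4 had a narrow event: KLK2, VEGFA, ESRP1 and PKM, a glycolytic enzyme whose 4-base event had 18, 15 and 12 reads in the KDM4B-labelled libraries and 18, 16 and 8 in the vector libraries (log2 ratio -0.37, SE 0.310, edgeR, adjusted p = 0.681).

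Of the host genes 411 had a mean of at least 1 FPKM. As deposited, 52 of them were higher and 259 lower in the KDM4B-labelled libraries (limma, adjusted p below 0.05), beside 13.4% and 60.3% (together 73.7%) of all 12148 genes tested. After median-of-ratios scaling, which brought the median log2 change of all genes to -0.00 (as deposited -0.22), 146 rose and 145 fell, beside 34.0% of all genes in each direction and 68.0% in either. Factors that act at 5′ splice sites also depended on scaling. Of 15 genes of the U1 particle and its partners 1 rose and 6 fell as deposited, and 10 rose and 2 fell after scaling. SNRNP70, the U1 protein that holds its first stem-loop, measured 77.93, 81.37 and 69.52 FPKM in the KDM4B-labelled libraries and 56.41, 60.77 and 57.83 FPKM in the vector libraries and rose on both scales (log2 fold change 0.38 and 0.62, limma, adjusted p = 7.03e-05 and 2.19e-06). PRPF40B, a U1-associated protein, measured 9.87, 9.73 and 9.73 against 14.91, 14.86 and 14.03 FPKM and fell on both (-0.53 and -0.31). SNRPC fell as deposited (-0.30) and was not called after scaling (-0.06, adjusted p = 0.178).

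Of 23 genes of the U5 and U6 particles and of their activation 8 rose and 7 fell, and 18 rose and 4 fell after scaling. These and the counts below stand beside 13.4% of all genes tested higher and 60.3% lower as deposited. After scaling it was 34.0% in each direction, and no list was tested against these shares. LSM3, of the ring that binds U6 RNA, rose (0.34 and 0.58), and LSM2 of the same ring fell (-0.38 and -0.14). METTL4, a methyltransferase of small nuclear RNA that is in this list but is no part of these particles, fell (-0.73 and -0.55). Of 36 SR proteins, hnRNP proteins and other regulators 5 rose and 20 fell, and 20 rose and 6 fell after scaling. ESRP1 had the lowest p, at 17.24, 17.4 and 18.62 FPKM in the KDM4B-labelled libraries and 52.62, 48.47 and 48.79 FPKM in the vector libraries (log2 fold change -1.44, and -1.21 after scaling, limma, adjusted p = 4.35e-10 and 1.18e-08). SRSF11 (-0.45 and -0.21) and the SR protein kinase CLK1 (-0.45 and -0.22) fell on both scales.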

How the data were processed

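The A5SS and SE tables were deposited as whole-number counts, 1 per event and library and not normalized. The authors gave expression as FPKM per gene, to 2 decimals, per the file headers. Of the tools in the submitters' processing notes (HISAT, StringTie, Cufflinks; builds GRCh38 and hg38) neither role nor version is stated, and no source used here names the splicing caller. Members and lists were chosen with earlier results of these data known. Each A5SS count and the SE sum of its gene entered edgeR 4.0.16 (glmQLFit and glmQLFTest, R 4.3.3, two-sided, Benjamini-Hochberg at 0.05 over 1193 events) with terms for library, kind of count and kind by group. Events needed 10 reads of event plus SE in each library and 10 reads of each kind in all. Genes with a mean of at least 1 FPKM were tested with limma 3.58.1 on log2(FPKM + 1). Named events were the called ones (7 by the rule, which asks a mean of 10 event reads and no overlap of the groups, and SIGIRR and STARD3 after their values were seen), the 8 most read (1 of them is not reported here), up to 2 per host gene group by p, genes fixed by name, and those next to the 50-base limit; named factors were the 3 of lowest p per list. On simulated counts for the 1193 events, 91.0% of log2 changes of 1 and 97.0% of 2 were recovered, with 1.01% of unchanged events called. The simulation gave every event the same dispersion, which was set and not estimated from these libraries. These shares hold for that dispersion only and do not give the recovery in the real libraries. Replicates differed by more than sampling noise (chi-square per degree of freedom 2.03 to 2.61 within groups). Between a KDM4B-labelled and a vector library it was 12.5 to 14.3, which also holds the difference between the groups. SE exon lengths were multiples of 3 in 41.4% of cases with starts counted from 0, against 29.0% otherwise. Splice site sequences were not analysed here. The closing section gives the alternatives, among them DESeq2 1.42.0.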

Additional observations from a re-analysis of the deposited data

How the results depend on the processing

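Under the alternatives, the number of calls, 9 in the main fit, was 5 with the most-read SE event as base, 4 with DESeq2 and 4 with limma on the log2 ratio. It was 1 with 1 event per gene (321 events tested) and 2 with the nearest-exon event as base (50 tested, chosen after seeing the data). It was 8 with SE events that share no exon (352 tested), 6 with at least 10 event reads in each library and 8 with no filter. Some fits did not hold all 9 events. With 1 event per gene 2 of the 9 were tested and 1 was still called, and with the nearest-exon base 3 and 2. With SE events that share no exon 7 were tested and 7 still called, and ARF1 and RPS14 could not be tested. With at least 10 event reads in each library 5 were tested and 5 still called. DESeq2 and limma both called ARF1, PABPC4, RCC1 and VEGFA. Leaving out each library gave 1 to 9 calls, 1 without KDM4B replicate 1 and 2 without vector replicate 2. Over all A5SS events the range was 12 to 45, with 13 without KDM4B replicate 1 and 12 without vector replicate 2. All 9 narrow events called in the main fit kept their direction in every fit that held them. Event reads alone, a different quantity, gave 104 calls with TMM and 77 with DESeq2 size factors, beside 334 and 275 over all A5SS events. With a replicate block on the shared numbers 1 and 2, which left 1 residual degree of freedom, edgeR called 0 (43 at an unadjusted p below 0.05). Over all A5SS events it also called 0. Deviations of same-numbered libraries correlated at 0.01 and -0.08, so no shared deviation was seen in these ratios. Whether equal numbers were paired in the experiment is not stated in the labels. Leaving out each library gave 43 to 49 host genes higher and 240 to 262 lower, and 12 to 14 splice site factors higher and 26 to 35 lower. Median-of-ratios scaling changed host genes to 146 higher and 145 lower and factors to 48 higher and 12 lower, from 14 and 33 as deposited. Of all genes tested 34.0% were called in each direction after scaling, and 13.4% higher and 60.3% lower as deposited.

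Signs that turned belonged to events with no call. With event reads alone (TMM, then DESeq2 size factors) these were HSP90AA1 (0.9433, 0.9518), RDH11 (-0.7313, -0.7229), ATP2C1 (-0.3549, -0.3464), KLK2 (-2.449, -2.4413), PMEPA1 (-0.811, -0.8069) and PKM (0.3461, 0.3602). With the most-read SE event they were RDH11 (-0.0233), ATF7 (0.0036) and N4BP2L2 (0.0048), and with SE events that share no exon RDH11 (-0.0048) and the 35-base VEGFA event (0.0519). With the block they were NDUFS5 (-0.0195), RDH11 (-0.012), ATF7 (0.0143) and N4BP2L2 (0.1187). Over the fits without 1 library, turned signs gave ranges of -0.017 (without KDM4B replicate 1) to 0.058 for ATP5J2, -0.0221 to 0.0536 for NDUFS5 (below 0 without KDM4B replicate 4, and at -0.0059 without vector replicate 2), -0.021 to 0.0263 for RDH11 (below 0 without KDM4B replicate 4, and at -0.0006 without vector replicate 1), -0.0082 (without KDM4B replicate 1) to 0.0753 for CNBP, -0.2224 to 0.0217 (without vector replicate 2) for ATF7 and -0.1637 to 0.0884 (without KDM4B replicate 4) for N4BP2L2. The cause was not tested. Under 10 reads per library the median SE was 0.596 (log2), which limits what such events can show.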
